A study of Mus musculus with 4 samples.

Results

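The Id genes are the 4 mouse genes Id1, Id2, Id3 and Id4, taken by name as the whole Id family. They are 4 of the 37620 gene identifiers counted, and all 4 were among the 14263 genes at or above 1 CPM (counts scaled to a common library size) in at least 1 library, the filter used for every count over all genes. Poly-A RNA from 4 cultures was sequenced on the Illumina platform with a kit that keeps the strand, and each condition is 1 library, so that no difference below has a replicate check. The conditions 2i-L, 2iJ and 2iJ+B-A are R1 mouse embryonic stem cells (mESCs) kept without feeder cells for 2 days in medium with serum. The fourth is F4 trophoblast stem cells (TSCs).

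The 2i-L cells were given 3 µM CHIR99021, a GSK3 inhibitor that turns on Wnt signalling, and 1 µM PD0325901, a MEK inhibitor, and the labels list no LIF among the supplements. The 2iJ cells were given the same inhibitors and 2.0 µM of a JAK inhibitor. The 2iJ+B-A cells were given all of these plus 10 ng/ml BMP4 and 10 µM ALK5 inhibitor II, which blocks the receptors for Activin, Nodal and TGF-beta. BMP4 and the ALK5 inhibitor were always given together, so the effect of one cannot be told apart from that of the other. The TSCs carry no treatment label beyond the day, and they differ from the mESCs in cell line and in medium, which cannot be told apart either.

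Id proteins are helix-loop-helix (HLH) proteins without the basic region that touches DNA. They pair with E proteins, the common partners of the tissue-specific basic HLH (bHLH) factors, and the pair cannot bind DNA. Id1, Id2 and Id3 are standard direct targets of BMP, whose receptors phosphorylate SMAD1, SMAD5 and SMAD9. In mESCs the BMP-Id route is known to hold back differentiation alongside LIF and STAT3, and Id2 is a known gene of the trophectoderm, the outer layer of the blastocyst that TSCs represent.

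On the NCBIM37 assembly Id1 (ENSMUSG00000042745) lies at chr2:152561987-152563146 on the plus strand, Id2 (ENSMUSG00000020644) at chr12:25778666-25780957 on the minus strand, Id3 (ENSMUSG00000007872) at chr4:135699412-135701670 on the plus strand and Id4 (ENSMUSG00000021379) at chr13:48356796-48359405 on the plus strand. All 4 are short protein-coding genes, with between 119 residues for Id3 and 168 for Id1 in the longest annotated coding sequence. The coding sequences of any 2 members share between 63.6% and 73.3% of the bases of the shorter one, and the longest stretch without a mismatch is 17 bases, far shorter than a read. Outside the members themselves, the longest copy in the genome is a stretch of 755 bases on chromosome X that is 87.7% identical to the Id2 transcript. The pseudogene annotated there, Gm6175, had 0 counts in every library. Id4 is overlapped on the other strand by the long noncoding RNA gene A330033J07Rik, which had at most 1 count in any library.

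The 250 bases before the annotated start of Id2, Id3 and Id4 are shown because Id2 and Id3 rose in 2iJ+B-A and Id4 did not reach the 2-fold threshold. They come from RefSeq on GRCm38.p6, run 5′ to 3′ on the gene's own strand, and carry in capitals the palindrome GGCGCC, a GC-rich element through which BMP-activated SMADs are known to act in the Id1 promoter. Id1 itself was not matched in the promoter table.
Id2 at chr12:25096093-25096342, minus strand: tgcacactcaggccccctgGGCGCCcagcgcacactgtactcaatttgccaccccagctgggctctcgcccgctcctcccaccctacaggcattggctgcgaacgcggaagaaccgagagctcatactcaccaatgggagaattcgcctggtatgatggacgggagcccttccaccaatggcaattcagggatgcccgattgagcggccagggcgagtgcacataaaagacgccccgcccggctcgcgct
Id3 at chr4:136143572-136143821, plus strand: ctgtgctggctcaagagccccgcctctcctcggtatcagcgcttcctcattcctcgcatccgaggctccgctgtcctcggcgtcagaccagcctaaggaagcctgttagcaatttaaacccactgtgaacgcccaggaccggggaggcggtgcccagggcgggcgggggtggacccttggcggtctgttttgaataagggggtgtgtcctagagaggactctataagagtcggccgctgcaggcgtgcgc
Id4 at chr13:48260866-48261115, plus strand: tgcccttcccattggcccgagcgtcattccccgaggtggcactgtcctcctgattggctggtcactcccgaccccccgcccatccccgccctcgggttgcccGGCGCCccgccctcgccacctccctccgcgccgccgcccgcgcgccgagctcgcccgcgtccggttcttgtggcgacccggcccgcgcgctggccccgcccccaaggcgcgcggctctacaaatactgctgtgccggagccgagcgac

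GGCGCC occurred 1 time in the Id2 window, 231 to 226 bases before the start, and 1 time in the Id4 window, 148 to 143 bases before it. It was not in the Id3 window. Of all 32851 promoter windows of the same length, 9.59% held it, and of the 12564 windows matched by symbol to genes that passed the filter, 16.6% did. The SMAD box GTCTG, searched on both strands, occurred 2 times in the Id3 window, forward at 68 to 64 bases before the start and in reverse at 167 to 163, and in neither of the others, against 42.2% of all windows. The STAT element TTCNNNGAA, the same on both strands, was in none of the 3 windows and in 7.02% of all windows. These motifs do not overlap each other in the 3 windows. GC content was 62.8% in the Id2 and the Id3 window and 75.6% in that of Id4, against a median of 52.4% over all windows and 60% over those of genes that passed the filter. A match describes the letters only and does not show binding.

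Depth was even. Between 33913984 and 36964392 read pairs were counted on genes, 3 counts corresponded to 0.0799 to 0.0902 CPM, and the counted strand held 29.1 to 32.1 times the counts of the opposite strand. Levels are in CPM after scaling by TMM factors of 0.969 to 1.04, and the range after each level is its exact 95% Poisson interval. The intervals on folds are exact 95% binomial intervals of the counts, and all of them cover counting error only, not differences between cultures. A gene is called higher or lower when the log2 ratio of (CPM + 0.5) is at least 1 in size, which is 2-fold. mESC markers were present in the mESC libraries, where the lowest of 6 was at 91.5 CPM. In TSCs the lowest of 9 TSC markers was at 45.1 CPM, and Elf5 had 10471 counts against 1 to 5 in the mESC libraries. Of the mESC markers in TSCs, Fgf4 had 1 count and Pou5f1 and Nanog were at 1.34 and 2.65 CPM. Zfp42, Sox2 and Esrrb were still at 123, 154 and 248 CPM there. Sox2 and Esrrb are on both lists, and both were higher in each mESC library than in TSCs. In bulk RNA, fewer cells of a type and less RNA per cell cannot be told apart, which holds for every value below.

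Id1 was at 6.40 CPM in 2i-L (5.57 to 7.33), 8.01 after 2iJ (7.09 to 9.01), 91.6 in 2iJ+B-A (88.6 to 94.7) and 24.4 for TSCs (22.7 to 26.0). The 2iJ+B-A library was thus far above the other 3, with TSCs next. Id2 was at 8.81 CPM in 2i-L (7.83 to 9.88), 20.5 after 2iJ (19.0 to 22.1), 165.9 in 2iJ+B-A (161.8 to 170.03) and 445.7 for TSCs (438.7 to 452.7). Id2 was the only member with its highest level in TSCs.

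Id3 was at 8.06 CPM in 2i-L (7.12 to 9.08), 16.9 after 2iJ (15.6 to 18.4), 101.2 in 2iJ+B-A (98.0 to 104.5) and 11.1 for TSCs (10.01 to 12.2). Its TSC level thus lay between those of 2i-L and 2iJ. Id4 was at 8.42 CPM in 2i-L (7.46 to 9.47), 14.9 after 2iJ (13.7 to 16.3), 20.9 in 2iJ+B-A (19.5 to 22.4) and 0.570 for TSCs (0.348 to 0.880), where it had 20 counts. Across the mESC conditions all 4 genes had the same order, lowest in 2i-L and highest in 2iJ+B-A, and TSCs stood at a different place in that order for each gene. Id1 in 2i-L and 2iJ were the only neighbours whose level intervals overlapped.

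**Figure D1:**
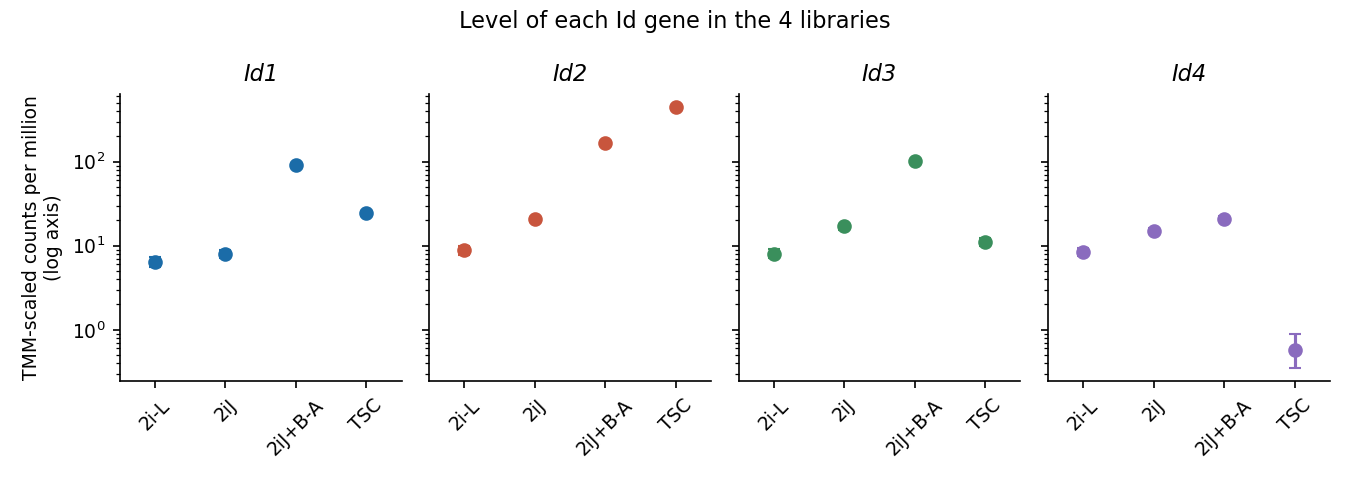
TMM-scaled CPM (log axis) of Id1, Id2, Id3 and Id4 in the 4 libraries, each point being 1 library and each bar its 95% Poisson interval. All 4 genes climb from 2i-L over 2iJ to 2iJ+B-A, and in TSCs Id2 reaches 445.7 CPM while Id4 lies at 0.570 CPM.

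The comparison of 2iJ+B-A with 2iJ asks what BMP4 and the ALK5 inhibitor added. Id1, Id2 and Id3 rose and Id4 did not pass the threshold. Id1 was 11.4-fold higher (10.1 to 13.0; log2 ratio 3.44), Id2 8.08-fold (7.47 to 8.75; 2.98) and Id3 5.97-fold (5.47 to 6.53; 2.54). Counted from the largest increase, these were the genes at rank 10, 24 and 52 of 14263. Id4 was 1.40-fold higher (1.25 to 1.57; 0.47), so the increase in its counts exceeded counting error but not 2-fold. That is 3 of 4 members called higher and 0 called lower, with a median log2 ratio of 2.76, where 5.81% of all genes were called higher and 3.17% lower and the median was 0.00.

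The members also differed from each other, in ratios that no scaling between libraries can move. The fold of Id1 was 1.42 times that of Id2 (1.22 to 1.64, a 95% interval from the counts by the normal approximation on the log scale) and 1.92 times that of Id3 (1.65 to 2.23). The fold of Id3 was 4.26 times that of Id4 (3.70 to 4.91). Id1 thus rose most and Id4 least, beyond counting error at each step. Cell type markers moved too. The summed level of 8 differentiated trophoblast markers was 6.41 CPM in 2iJ and 31.1 in 2iJ+B-A, of which Gcm1 alone gave 28.0, while 4 of the 8 were at 0. Of the 5 that passed the filter, 2 were called higher and 0 lower. Of 9 TSC markers, 3 were called higher, including Cdx2 (5.02-fold), and 1 lower, Eomes (-1.78). Of 4 primitive endoderm markers that passed, 3 were called higher and 0 lower. Of 6 mESC markers 0 were called, with a median log2 ratio of -0.60. Over all genes, 5.81% were higher and 3.17% lower. The part of these markers in the Id values was not tested, nor was that of the share of counts on mitochondrial genes, 2.75% in 2iJ and 3.50% in 2iJ+B-A.

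The comparison of 2iJ with 2i-L asks what the JAK inhibitor did. Id2 and Id3 were higher, just past the threshold. Id2 was 2.33-fold higher (2.03 to 2.68; log2 ratio 1.18) and Id3 2.10-fold (1.82 to 2.44; 1.03), and for both the lower end of the interval on the log2 ratio, 0.99 and 0.83, was under 1. Id4 was 1.77-fold higher (1.53 to 2.06; 0.79) and Id1 1.25-fold (1.04 to 1.502; 0.30), neither of them called. With 2 members called higher and 0 lower, the median was 0.91, while 1.23% of all genes were called higher and 0.918% lower. With 1 CPM added in place of 0.5, 1 member was called. Some trophoblast markers moved too: Gcm1 was 3.89-fold higher (2.83 to 5.46) and Cdx2 2.56-fold (1.99 to 3.32). Of 9 TSC markers, 2 were called higher and 0 lower, with a median log2 ratio of -0.06. Of the 5 differentiated trophoblast markers that passed the filter, 1 was called higher and 0 lower, with a median of 0. All 8 of that list summed to 2.26 CPM in 2i-L and 6.41 in 2iJ, of which Gcm1 gave 1.44 and 5.62. The part of these markers in the Id values was not tested.

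The order of the members was not that seen in 2iJ+B-A against 2iJ. Id1, which rose most in 2iJ+B-A, had the smallest fold in 2iJ, at 0.537 times that of Id2 (0.429 to 0.672) and 0.705 times that of Id4 (0.560 to 0.888). The folds of Id2 and Id3 could not be separated, with a ratio of 1.11 (0.908 to 1.35), and neither could those of Id3 and Id4, with a ratio of 1.19 (0.965 to 1.46). Both comparisons use the 2iJ library, on opposite sides, so any chance deviation of that library lowers one set of folds and raises the other. From 2i-L to 2iJ+B-A, which leaves the 2iJ library out, the folds were 14.3 for Id1, 18.8 for Id2, 12.6 for Id3 and 2.48 for Id4, and all 4 were past 2-fold, where 7.93% of all genes were called higher and 4.52% lower.

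**Figure D2:**
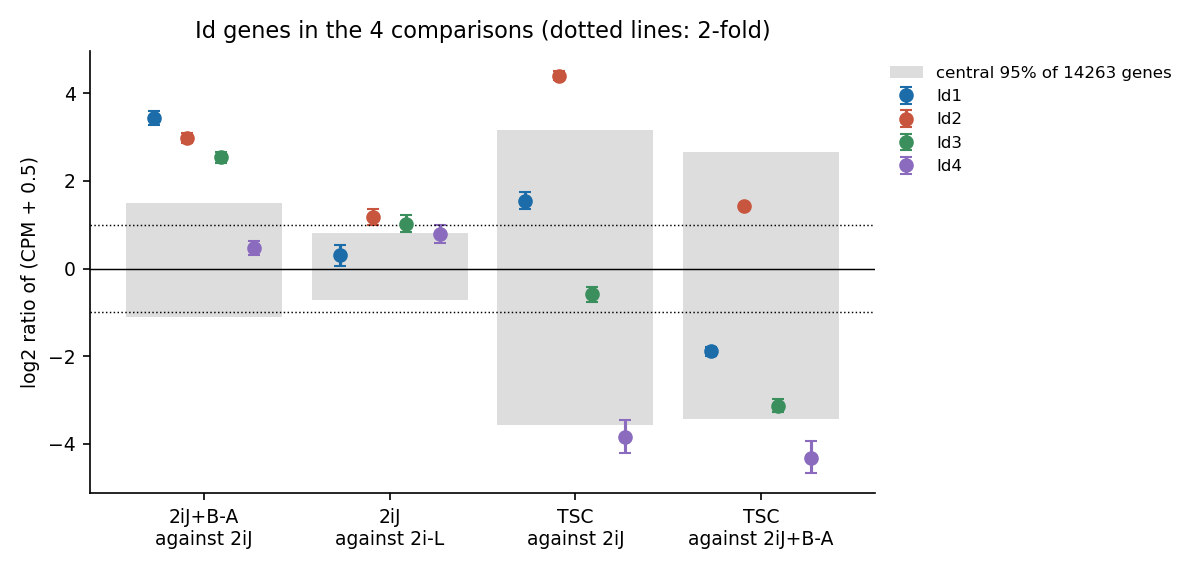
log2 ratio of (CPM + 0.5) of the 4 Id genes in the 4 comparisons, with 95% intervals that cover counting error; the grey band holds the central 95% of the 14263 genes and the dotted lines mark 2-fold. Id1, Id2 and Id3 lie above the band, whose top lies under Id3, in 2iJ+B-A against 2iJ, and the members spread from 4.41 for Id2 to -3.85 for Id4 in TSC against 2iJ.

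TSCs against 2iJ split the family. Id2 was 21.7-fold higher in TSCs (20.1 to 23.4; log2 ratio 4.41), and Id1 was 3.04-fold higher (2.65 to 3.50; 1.55). Id3 was 1.53-fold lower (1.34 to 1.74; -0.59), which is not called, and Id4 was 26.2-fold lower (16.8 to 43.3; -3.85). Here 2 members were called higher and 1 lower, with a median of 0.48, among 19.4% of all genes higher and 17.6% lower. Set against 2i-L instead, Id3 was 1.38-fold higher in TSCs (1.17 to 1.61), so its direction depends on which mESC library is the reference.

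TSCs against 2iJ+B-A set the trophoblast line beside the mESCs treated toward it. Id2 was 2.69-fold higher in TSCs (2.61 to 2.77; log2 ratio 1.42). The others were lower in TSCs, Id1 3.76-fold (3.49 to 4.06; -1.89), Id3 9.13-fold (8.23 to 10.2; -3.13) and Id4 36.7-fold (23.6 to 60.5; -4.32). Thus 1 member was called higher and 3 lower, with a median of -2.51, where 16.4% of all genes were higher and 16.2% lower. The share of genes called is large in both TSC comparisons, and only Id2 and Id4 in TSC against 2iJ and Id4 in TSC against 2iJ+B-A lie outside the central 95% of all genes.

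Markers of other cell types moved between TSCs and mESCs as well. The summed level of 10 fibroblast markers was 53.3 CPM in 2i-L, 45.4 after 2iJ, 43.3 in 2iJ+B-A and 14.4 for TSCs, where 3 of them were at 0. Like Id4, the sum was lowest in TSCs. Across the mESC libraries the sum fell and Id4 rose, but the genes in the sum went both ways. In 2iJ+B-A against 2iJ, Pdgfra was called higher (log2 ratio 1.86) and Col1a1 lower (-2.00). The median of the 8 fibroblast markers that passed the filter was 0.36 there, where 5.81% of all genes were higher and 3.17% lower. In 2iJ against 2i-L, 0 of these were higher and 1 lower, with a median of -0.08. In TSC against 2iJ, 4 of the 8 that passed the filter were lower and 0 higher, where 17.6% of all genes were lower. Fibroblasts are the usual feeder cells, and the mESCs were kept without feeder cells. The summed level of 5 endothelial markers was 7.52 to 11.0 CPM in the mESC libraries and 33.0 in TSCs, where 3 of the 5 were at 3 counts or fewer. These genes also went both ways. From 2iJ to TSCs, Kdr (0.874 to 22.2 CPM) and Cdh5 (0.320 to 10.7) rose, and Tek fell (9.61 to 0.0285). The summed level of 5 primitive endoderm markers was 3.35 CPM with 2iJ, 14.5 in 2iJ+B-A and 30.0 for TSCs, where Gata4 alone gave 23.5. From 2iJ+B-A to TSCs, Gata4 (3.91 to 23.5 CPM) and Foxa2 (0.639 to 2.08) rose. Gata6 (6.97 to 3.87 CPM), Sox17 (2.32 to 0.142) and Sox7 (0.612 to 0.427) fell. The part of these cell types in the Id values was not tested.

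To compare the members with each other, counts were also divided by the length of the gene's exons and expressed as TPM (transcript units scaled to the same total in each library). Summed over the 4 genes, the Id level was 55.4 TPM in 2i-L, 106 after 2iJ, 727 in 2iJ+B-A and 1110 for TSCs. The sum was 6.85 times as high in 2iJ+B-A as in 2iJ and 1.53 times as high in TSCs as in 2iJ+B-A. The last value was 1.27 when CPM was summed with no length.

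The make-up of that sum changed too. In 2i-L the members were nearly even, with Id1 at 25.1% of the sum, Id2 at 31.5%, Id3 at 20.4% and Id4 at 23.0%. In 2iJ+B-A Id2 gave 46.9%, Id1 28.3%, Id3 20.3% and Id4 4.52%. In TSCs Id2 alone gave 92.7%, with 5.55% from Id1, 1.63% from Id3 and 0.0907% from Id4. The shares depend on the length used for Id3, whose exons cover 1791 bases and whose longest transcript has 1278. For Id1, Id2 and Id4 the 2 lengths are equal. In CPM, with no length, Id3 was above Id1 in 2iJ+B-A, at 101.2 against 91.6, so the order of these 2 rests on that choice. At 1029 TPM, Id2 was at rank 105 of all genes in TSCs, and at 341 TPM at rank 395 in 2iJ+B-A, where Id1 at 206 TPM was at rank 704.

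The partners that Id proteins bind moved little or the other way. The E protein genes are Tcf3 (ENSMUSG00000020167, which encodes E12 and E47 and is not Tcf7l1), Tcf4 and Tcf12. Their summed level was 122 TPM in 2i-L, 131 after 2iJ, 115 in 2iJ+B-A and 73.9 for TSCs. Of the 3, Tcf4 was lower in 2iJ+B-A than in 2iJ, with a log2 ratio of -1.09. Tcf3 was at -0.27 and Tcf12 at 0.11, both not called. Over all genes, 3.17% were lower and 5.81% higher. In TSC against 2iJ, Tcf3 (-1.42) and Tcf4 (-1.56) were called lower and Tcf12 (-0.18) was not called. There 17.6% of all genes were lower and 19.4% higher. Summed Id RNA was therefore 0.452 times the summed E protein RNA in 2i-L, 0.807 times with 2iJ, 6.34 times in 2iJ+B-A and 15.0 times for TSCs. These are ratios of RNA and say nothing of protein.

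**Figure D3:**
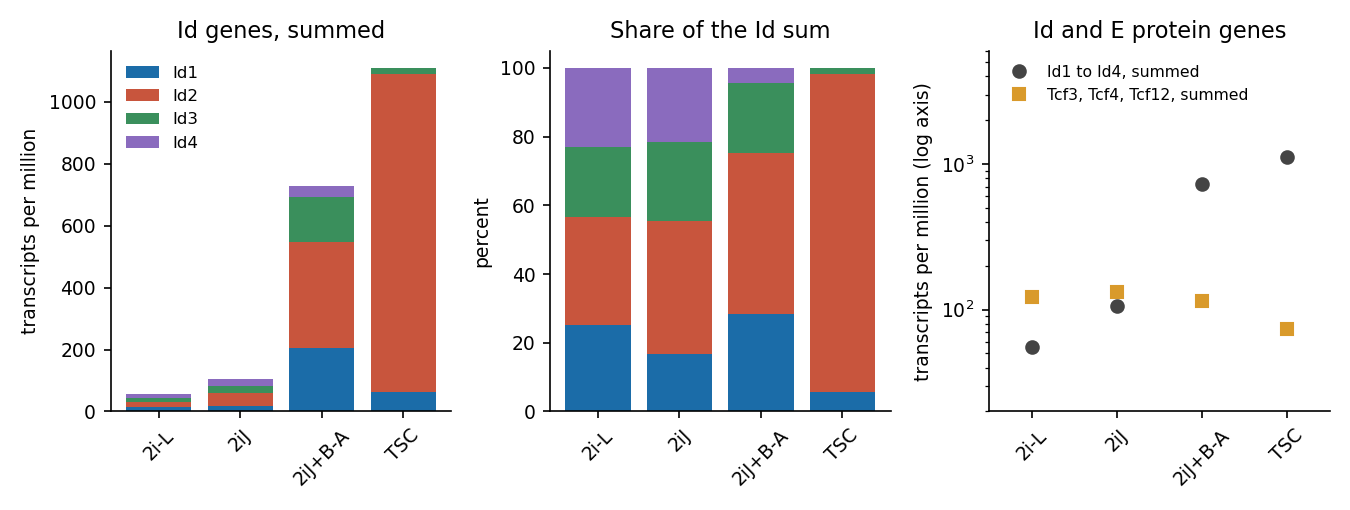
Left, summed level of Id1 to Id4 in TPM, stacked by gene; middle, each gene's share of that sum in percent; right, the summed Id level (circles) and the summed E protein level (squares) on a log axis. The Id sum passes the E protein sum in 2iJ+B-A, at 727 against 115, and in TSCs Id2 holds 92.7% of it.

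The tissue-specific bHLH genes, whose products need E proteins as partners, were mostly silent: 7 of the 32 listed passed the filter. Of all 37620 identifiers, 14263 passed it. In 2iJ+B-A against 2iJ, 3 of the 7 rose, 0 fell and the median log2 ratio was 0.54. Over all genes that passed, 5.81% rose and 3.17% fell. Atoh1 passed the filter only through 2iJ+B-A, so it had to differ, and of the 5 that passed through more than 1 library 2 rose. Hand1, a bHLH factor of trophoblast giant cells, was at 1.31 CPM in 2iJ and 103.5 in 2iJ+B-A (log2 ratio 5.84). Ascl2, needed for the spongiotrophoblast, was at 2.42 and 22.7 CPM (2.99), and Atoh1 at 0.116 and 1.14 CPM (1.42). Neurog3 was at 0.54, Tcf15 at -0.81 and Neurod1 at -0.47 on the log2 scale, which is not called. In TSCs Hand1 reached 382.8 CPM and Ascl2 13.3, and Hand1, like Id2, was highest there.

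Upstream of the Id genes, the BMP receptors and SMADs were mostly not called in 2iJ+B-A against 2iJ. Of 11 genes, 1 rose, 1 fell and 9 were not called, with a median log2 ratio of -0.03, where 5.81% of all genes rose and 3.17% fell. Smad9, which encodes a BMP-specific SMAD, was at 0.903 and 5.08 CPM (1.99), but it passed the filter only through 2iJ+B-A and so had to differ, and Bmpr1b, a type I receptor, fell from 6.67 to 0.985 CPM (-2.27). Acvr2b was at -0.56, Acvr1 at -0.55, Bmpr2 at -0.50 and Smad1 at 0.49. The type I receptor Bmpr1a was at 124 CPM in 2iJ and 173 in 2iJ+B-A, so BMP receptor RNA was also present in the culture without BMP4.

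The other genes that BMP is known to induce, or that act back on it, mostly rose as well. In 2iJ+B-A against 2iJ, 8 of the 13 that passed the filter rose and 1 fell, with a median log2 ratio of 1.31. Over all genes, 5.81% rose and 3.17% fell. Atoh8 and Dlx5 passed only through 2iJ+B-A and had to differ, and of the other 11 genes 6 rose and 1 fell, with a median of 1.23. Gata2, a trophoblast factor, had the largest log2 ratio of (CPM + 0.5), from 23.1 to 236.4 CPM (3.33), followed by Msx2 (2.07), Atoh8 (1.96), the inhibitory SMAD gene Smad6 (1.94) and Msx1 (1.87). Hey1 fell (-2.21). The added 0.5 CPM understates the change of low genes, such as Atoh8, which had 3 counts in 2iJ and 67 in 2iJ+B-A. On this scale Gata2 lay between Id1, at 3.44, and Id2, at 2.98.

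The receptors that the ALK5 inhibitor blocks have known target genes. Of 9 Activin and Nodal target genes, 7 fell in 2iJ+B-A against 2iJ and 0 rose, with a median log2 ratio of -1.85. Over all genes, 3.17% fell and 5.81% rose. Lefty2 was at 9088 counts in 2iJ and listed at 0 in 2iJ+B-A, Lefty1 was at 128 and 0.373 CPM (-7.20), and Skil (-2.25), Tdgf1 (-1.85) and Eomes (-1.78) fell too. The Id genes thus rose in a library in which the Activin and Nodal targets were low, and the part of either agent in the Id values was not tested.

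In 2iJ against 2i-L fewer of all genes were called, 1.23% higher and 0.918% lower. Of 11 JAK/STAT3 target genes, 4 fell and 0 rose, with a median log2 ratio of -0.86, led by Bcl3 (-3.01), the feedback inhibitor Socs3 (-1.86), Stat3 itself (-1.41) and Klf4 (-1.03). Tfcp2l1 was at -0.94 and Gbx2 at -0.86, not called. Of the 13 BMP target and feedback genes, 3 rose and 0 fell, with a median of 0.67: Msx1 (2.00), Gata3 (1.32) and Gata2 (1.18) rose beside Id2 (1.18) and Id3 (1.03). The E proteins, the tissue-specific bHLH genes, the BMP receptors and SMADs and the Activin and Nodal targets had no gene called, among 3, 7, 11 and 9. In 2iJ+B-A against 2iJ, 2 of the JAK/STAT3 targets rose, Socs3 (1.55) and Klf4 (1.17), 1 fell, Socs2 (-1.52), and the median was -0.17. Over all genes, 5.81% rose and 3.17% fell in that comparison.

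**Figure D4:**
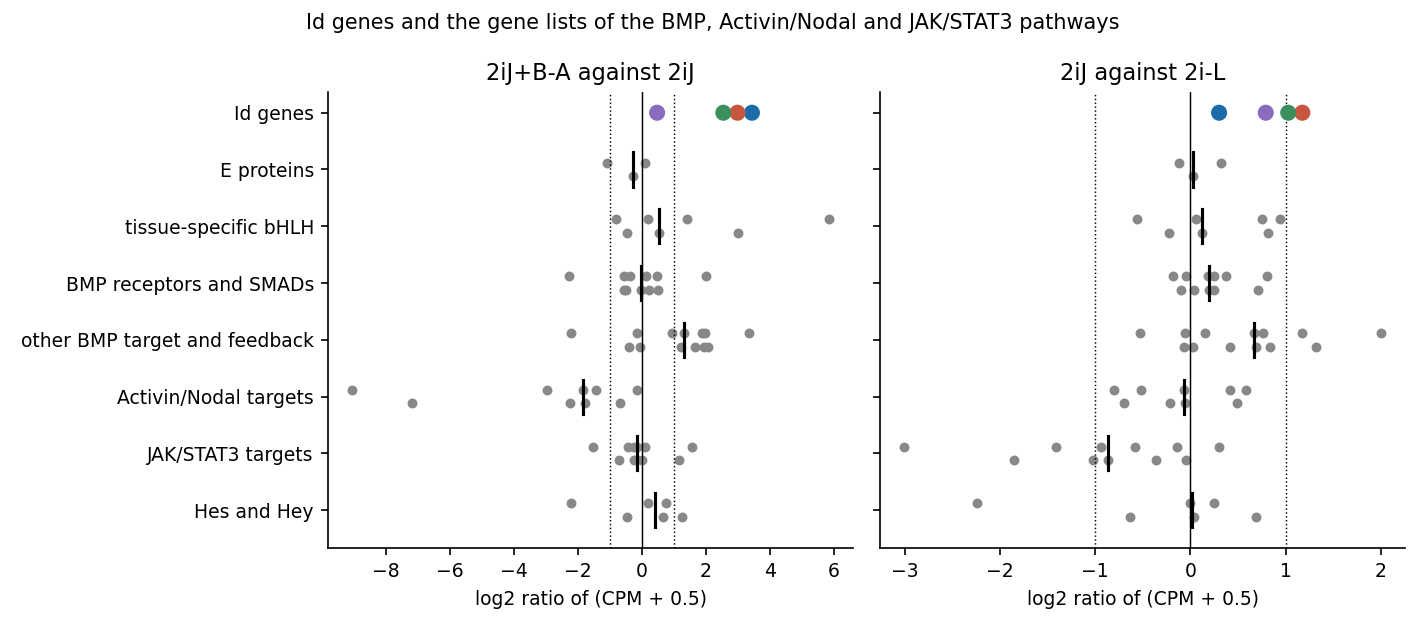
log2 ratio of (CPM + 0.5) of the Id genes (coloured as in the plot of levels) and of the genes of each list that passed the filter (grey, black bar at the median) in 2iJ+B-A against 2iJ (left) and 2iJ against 2i-L (right), on separate axes with dotted lines at 2-fold. Left, 3 Id genes lie at 2.54 to 3.44 while the Activin/Nodal targets have a median of -1.85; right, the JAK/STAT3 targets have a median of -0.86; the leftmost point, Lefty2, rests on 0 counts and its place depends on the added 0.5 CPM.

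The Hes and Hey genes, listed together with Bhlhe40 and Bhlhe41, also encode HLH repressors and are set beside the Id genes here. Hey1 is also on the list of BMP target and feedback genes. Of the 6 that passed the filter, 1 rose in 2iJ+B-A against 2iJ, Bhlhe41 (1.25), and 1 fell, Hey1 (-2.21), with a median of 0.42. Over all genes, 5.81% rose and 3.17% fell. Hey2 passed only through 2iJ+B-A and had to differ, and of the other 5 genes 1 rose and 1 fell, with a median of 0.19. In 2iJ against 2i-L Bhlhe40 fell (-2.25) and the other 5 were not called, with a median of 0.02. Over all genes, 1.23% rose and 0.918% fell in that comparison. The change of Bhlhe40 alone was thus opposite in direction to those of Id2 and Id3, while the list as a whole hardly moved.

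In TSCs the pathway genes gave a mixed picture against 2iJ+B-A, where 16.4% of all genes were higher and 16.2% lower. Of the 13 BMP target and feedback genes, 3 were higher and 7 lower, with a median log2 ratio of -1.30, and without Atoh8 and Dlx5, which passed the filter only through 2iJ+B-A, 3 of 11 were higher and 5 lower, with a median of 0.65. Gata3 (2.41) and Smad6 (1.64) were among those higher, like Id2, and Nog (-2.83), Dlx5 (-2.26), Msx1 (-2.08) and Bambi (-1.68) were lower like Id1, Id3 and Id4. Of the 11 receptor and SMAD genes, 3 were higher and 2 lower: Acvrl1 (2.82), Bmpr2 (1.18) and Acvr2a (1.10) against Smad9 (-2.94), which had to differ by the filter, and Bmpr1b (-1.41). Of the 11 JAK/STAT3 targets, 6 were higher and 1 lower, with a median of 1.33. Against 2iJ, TSCs had 4 of the 13 BMP genes higher and 2 lower, and 3 of the 11 receptors and SMADs higher and 1 lower. Of the 11 JAK/STAT3 targets, 6 were higher and 3 lower there, while 19.4% of all genes were higher and 17.6% lower.

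The genes whose levels followed each member most closely differed from member to member. Likeness was the root mean square difference of log2(CPM + 0.5) over the 4 libraries after centring each gene on its own mean, among 10267 genes that reached 10 CPM in a library. On this measure the closest members were Id1 and Id3, at 0.769, and the farthest Id2 and Id4, at 3.45. For Id1 the nearest genes were Peg10 (0.273), an imprinted gene needed for the placenta, then Esx1 (0.415), Tspan18 (0.428), Gata2 (0.434) and Zfp36l3 (0.465). Peg10 was at 437 CPM in 2i-L, 531 with 2iJ, 3663 in 2iJ+B-A and 1435 for TSCs.

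For Id2 they were Plac1 (0.240), Rhox6 (0.242), the imprinted cell cycle inhibitor gene Cdkn1c (0.365), C430049B03Rik (0.366) and 3830417A13Rik (0.376). Plac1 and Rhox6 are known placental genes, and Rhox6 was at 7.61, 14.2, 127 and 245 CPM in 2i-L, 2iJ, 2iJ+B-A and TSCs. For Id3 they were 1810041L15Rik (0.205), the Wnt antagonist gene Dkk1 (0.409), Zfp36l3 (0.427), the BMP antagonist gene Nbl1 (0.433) and Prr5l (0.462). For Id4 they included Hmcn1 (0.107), Col12a1 (0.108), Meis2 (0.147) and Flrt3 (0.184), of which Hmcn1 and Col12a1 encode matrix proteins. Zfp36l3 was the only gene among the 5 nearest of more than 1 member. With 4 libraries, a match in pattern can come from many unrelated genes.

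**Figure D5:**
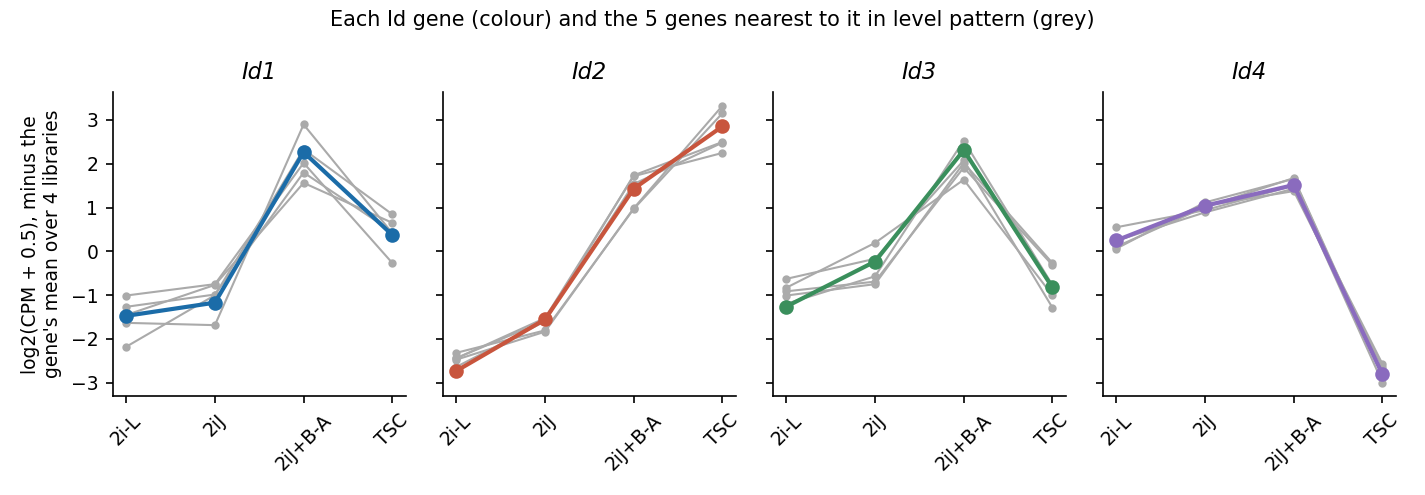
log2(CPM + 0.5) of each Id gene (coloured, thick) and of the 5 genes nearest to it (grey) in the 4 libraries, each minus its own mean. Id1 and Id3 peak in 2iJ+B-A, Id2 climbs up to TSCs, and Id4 drops in TSCs, where it and its neighbours lie lowest.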

How the data were processed

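The RNA-seq libraries of the 4 conditions were analysed. The authors deposited whole-number counts of read pairs per gene from STAR, made after adapter trimming and mapping to NCBIM37; the submitters' processing notes name STAR 2.4.2a, CASAVA 1.8.2 and cutadapt, and the annotation release was not given in the sources used here. Only uniquely mapped pairs are counted, and 6.72% to 7.01% of pairs mapped to several places. The ComBat adjustment in the study's methods is not in these counts. The counts of the reverse-stranded column were used (33913984 to 36964392 per library). Symbols, positions and exon lengths came from GENCODE M1, which held 37205 of the 37620 identifiers, and promoters from RefSeq.

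Counts were scaled with TMM factors from edgeR 4.0.16 (R 4.3.3), and genes with at least 1 CPM in 1 library were kept. Ratios had 0.5 CPM added on each side. With 1 library per condition there is no replicate test and no p-value, and intervals were exact (Clopper-Pearson or Poisson, SciPy 1.17.1). The script was tested on simulated data. Member copies were searched with BLAST 2.17.0. Alternatives were DESeq2 1.42.0 size factors, total counts, unstranded counts, other pseudocounts, filters and folds, the 2i-L reference, other lengths, and other measures of likeness.

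Named genes were the 4 members, every gene of a list with at most 5 genes, up to 6 genes of a longer list with the largest log2 ratio in size among those at 1 CPM or more in either library compared, and the 5 genes nearest to each member. Bmpr1a, and Bmpr1b in TSC against 2iJ+B-A (0.985 CPM in the higher library), lie outside this rule and were chosen after their values were seen. Some genes within the rule are not reported here. The members and lists were chosen with earlier results of these data known.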

Additional observations from a re-analysis of the deposited data

Results flagged for a closer look

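The count columns for the opposite strand enter no comparison above. In 4 cases they held more than 3 counts on an Id gene: Id1 had 4 in TSCs (0.468% of the counts on its own strand), Id2 had 12 in 2iJ+B-A (0.193%) and 51 in TSCs (0.326%), and Id3 had 13 in 2iJ+B-A (0.342%).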

How the results depend on the processing

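No paired analysis was possible because each condition is 1 library. Under DESeq2 size factors, total counts, unstranded counts and pseudocounts of 0.1 and 1 CPM, all 16 member log2 ratios kept their direction. With 2i-L as the reference, 7 of 8 did, the exception being Id3 in TSCs, at -0.59 against 2iJ and 0.44 against 2i-L. The other values with that reference were 3.74 for Id1, 4.16 for Id2, 3.57 for Id3 and 1.26 for Id4 in 2iJ+B-A, and 1.85 for Id1, 5.58 for Id2 and -3.06 for Id4 in TSCs. Id4 in TSCs, with 20 counts, moved with the pseudocount: -4.49 against 2iJ and -4.97 against 2iJ+B-A with 0.1 CPM, -3.34 and -3.80 with 1 CPM. In 2iJ against 2i-L, 1 member was called with 1 CPM and 0 at 4-fold, in place of 2, and in TSC against 2iJ+B-A 2 were called at 4-fold, in place of 4.

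With the longest transcript as length, the Id sum was 50.5, 97.8, 669 and 936 TPM for 2i-L, 2iJ, 2iJ+B-A and TSCs, its fold 9.58 in TSC against 2iJ and 1.40 in TSC against 2iJ+B-A, and the Id to E protein ratio 0.368, 0.670, 5.34 and 12.2, with a fold of 2.28 between the last 2. Without Tcf4 that ratio was 0.504, 0.887, 6.66 and 16.0. Unstranded counts gave an Id sum of 1131 TPM in TSCs. Summed as CPM with no length, the folds were 6.28 in 2iJ+B-A against 2iJ, 7.97 in TSC against 2iJ and 1.27 in TSC against 2iJ+B-A. With no filter on low counts the share of all genes called fell, for example from 5.81% to 2.26% higher in 2iJ+B-A against 2iJ, and with a 10 CPM filter from 1.23% to 0.653% higher in 2iJ against 2i-L. By Pearson correlation, 0 of the 5 genes nearest to each member were the same. Depth limits Id4 in TSCs most, and counting error also leaves the Id2 and Id3 calls in 2iJ against 2i-L at the threshold. With 1 culture per condition, spread between cultures is unknown for every value.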
